A study of Mus musculus with 4 samples.

Results

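Integrins are cell surface receptors, each built of an alpha and a beta chain, that tie the cytoskeleton to matrix proteins or to ligands on other cells. Laminins are trimers of an alpha, a beta and a gamma chain that assemble the basement membrane, the sheet around cardiomyocytes and under endothelium, and several integrins bind them. Leukocytes carry their own integrins, in which Itgb2 pairs with Itgal, Itgam, Itgax or Itgad, and they use these to adhere and to enter injured tissue. In heart muscle the integrin chain Itga7, paired with Itgb1, binds laminin that holds the alpha chain Lama2.

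The genes described here were taken by symbol: all integrin alpha chains, integrin beta chains and laminin chains that the files list, which came to 37 of 17550 genes. They comprise 18 integrin alpha, 8 integrin beta, 5 laminin alpha, 3 laminin beta and 3 laminin gamma chains. By known main site of expression, 8 were placed among leukocyte chains, 21 among muscle and stromal chains, and 8 among others (platelet, epithelial or embryonic chains). All 37 had at least 1 read in each library, and 30 reached 1 RPKM (reads scaled to gene length in kilobases and to library size) in at least 1 library.

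Left ventricle from 8-week-old C57BL/6 mice was sequenced 3 days after experimental myocardial infarction, as 1 library for each of 4 groups. These were infarcted tissue labelled Neil3-/-, infarcted wild-type tissue, non-infarcted tissue labelled Neil3-/- and non-infarcted wild-type tissue, with 18.2, 17.3, 14.3 and 14.9 M (mega) uniquely assigned reads. The non-infarcted tissue is from mice with an infarction too, so no group is free of injury. Nothing in the labels says whether a library came from 1 mouse or a pool, and how the Neil3 allele was made is not given there. No difference below has a replicate check. Ratios describe single libraries, and a range given in parentheses after a ratio is its 95% interval for counting error alone.

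Neil3, the DNA glycosylase gene named by the genotype, stood at 18.5 RPKM in infarcted and 12.0 RPKM in non-infarcted tissue labelled Neil3-/-, against 3.95 RPKM in infarcted and 1.83 RPKM in non-infarcted wild-type tissue. It was thus higher in both libraries labelled Neil3-/-, and each direction between genotypes below is one between labelled libraries. All 8 cardiomyocyte markers were at 1 RPKM or more in all 4 libraries. Their summed level was 6317 RPKM in the infarcted library labelled Neil3-/- and 9830.2 RPKM in the infarcted wild-type library, against 22297 and 23358 RPKM in the non-infarcted libraries labelled Neil3-/- and wild type. In bulk tissue, fewer cells of a type and less RNA per cell cannot be told apart. Of 4 atrial markers, 3 were lower by 2-fold or more in infarcted tissue labelled Neil3-/- and 3 in wild type, where 6.07% and 3.60% of all genes were. Their medians were -2.03 and -3.73 on the log2(RPKM + 1) scale, and 1 was above 0 in each pair. In non-infarcted tissue, 3 were lower by as much in the library labelled Neil3-/- than in wild type, where 0.188% of all genes were. The part of atrial tissue in the values below was not tested.

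To show sequence beside the values, the 250 bases upstream of the annotated start are printed for 4 chains: Itgam and Itgax, leukocyte chains that were both higher in infarcted tissue, and Lamb1 and Lamb2, which moved in opposite directions there. They come from RefSeq on build GRCm38.p6, run 5′ to 3′ on the gene's strand, which is the plus strand for all 4, and capitals mark GAGGAA or GGGCGG on either strand, which do not overlap here. The regions are chr7:128062390-128062639, chr7:128129300-128129549, chr12:31265043-31265292 and chr9:108479612-108479861 in the order printed.
Itgam: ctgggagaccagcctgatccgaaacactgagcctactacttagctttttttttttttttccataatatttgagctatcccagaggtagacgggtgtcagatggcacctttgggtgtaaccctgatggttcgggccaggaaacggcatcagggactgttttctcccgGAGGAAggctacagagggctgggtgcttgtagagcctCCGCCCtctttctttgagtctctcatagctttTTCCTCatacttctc
Itgax: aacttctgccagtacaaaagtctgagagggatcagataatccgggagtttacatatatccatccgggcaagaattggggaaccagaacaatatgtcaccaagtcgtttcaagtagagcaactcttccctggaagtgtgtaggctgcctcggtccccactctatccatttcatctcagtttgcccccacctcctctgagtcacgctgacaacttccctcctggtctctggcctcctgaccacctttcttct
Lamb1: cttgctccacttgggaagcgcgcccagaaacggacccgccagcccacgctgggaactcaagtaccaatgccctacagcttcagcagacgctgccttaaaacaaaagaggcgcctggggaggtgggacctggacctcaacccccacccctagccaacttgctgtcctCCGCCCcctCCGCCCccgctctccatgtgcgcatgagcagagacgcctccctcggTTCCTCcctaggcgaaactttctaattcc
Lamb2: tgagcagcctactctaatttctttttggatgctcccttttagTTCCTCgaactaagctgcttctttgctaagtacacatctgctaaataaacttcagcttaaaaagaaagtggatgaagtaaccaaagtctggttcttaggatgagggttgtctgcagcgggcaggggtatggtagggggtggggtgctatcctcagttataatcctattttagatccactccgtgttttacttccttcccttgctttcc

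GAGGAA, the purine-rich core that the myeloid factor PU.1 and other ETS proteins can bind, was present in the Itgam window 2 times, in the Lamb1 and Lamb2 windows 1 time each and not in that of Itgax. Searched on both strands, it was in 1 of 4 promoters of leukocyte chains, 9 of 16 of muscle and stromal chains and 3 of 6 of other chains, each start of a gene counted, and in 23.3% of all 32851 promoters in the table. GGGCGG, the GC box bound by Sp1, was in 2 of 4, 7 of 16 and 0 of 6 promoters of these classes, against 32.7% of all promoters. TATAAA was in none of the 26 promoters of the chains, against 12.4% of all promoters. A match is a description of letters and shows no binding.

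**Figure D1:**
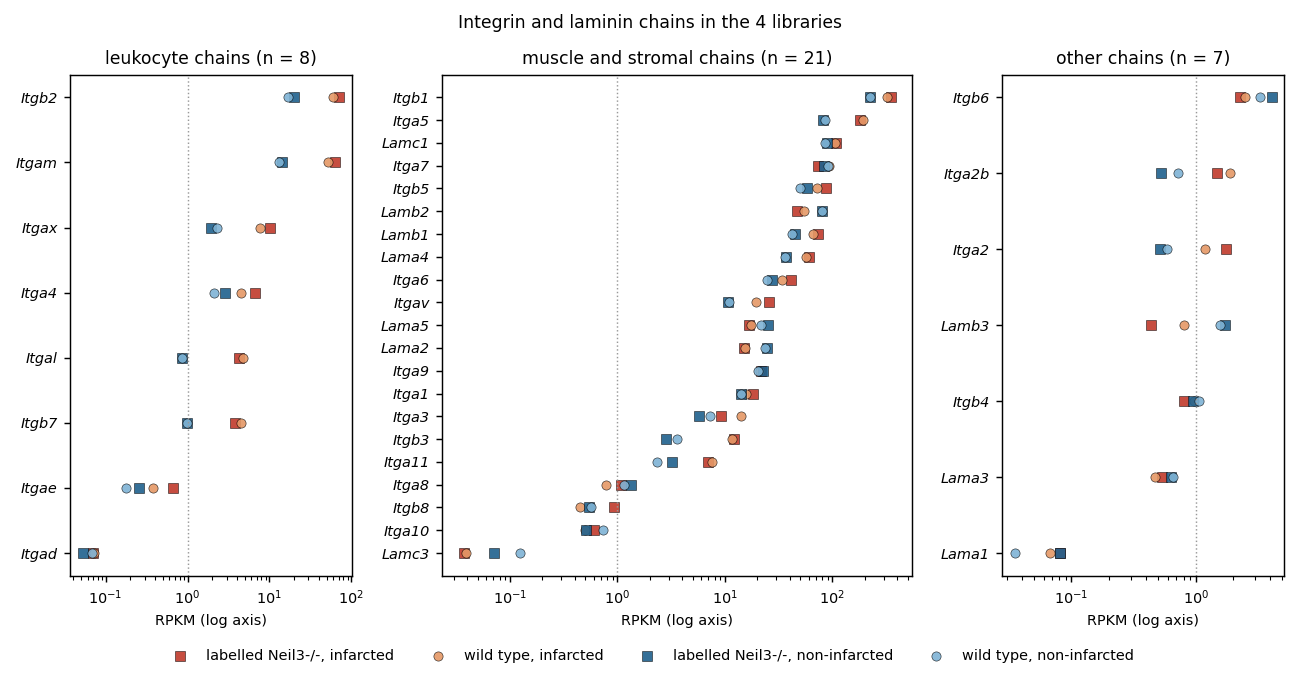
Level of each chain reported here in RPKM (log axis) in the 4 libraries, by class; 1 point is 1 library and the dotted line marks 1 RPKM. The infarcted libraries lie to the right of the non-infarcted ones for Itgb2 (71.5 and 60.2 against 19.7 and 16.9 RPKM), and to their left for Lamb2 (46.7 and 54.6 against 80.4 and 79.4 RPKM).

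The first question was how the chains differed between infarcted and non-infarcted ventricle. Infarcted tissue of both genotypes had more leukocyte integrin RNA per length, several stromal integrins that bind fibronectin, vitronectin or collagen were higher as well, and the laminin chains divided, with Lama4 and Lamb1 higher and Lama2, Lama5 and Lamb2 lower. Of the 37 chains, 29 passed the filter of 1 RPKM in at least 1 library compared in the pair labelled Neil3-/-, and 30 in the wild-type pair. On the log2(RPKM + 1) scale, which understates ratios of low genes, 8 of these 29 were higher by 2-fold or more in infarcted tissue labelled Neil3-/- and 0 lower by as much, where 8.20% of all genes compared were higher and 6.07% lower. In wild type 8 of 30 were higher and 0 lower, against 6.21% and 3.60% of all genes compared. Without the filter the counts among all 37 were also 8 and 8, where 6.05% of all genes in the pair labelled Neil3-/- and 4.57% in wild type were higher by as much. Itga5, Itgal, Itgam, Itgax, Itgb2, Itgb3 and Itgb7 made up the 7 that were counted in both genotypes, with Itgav added in the pair labelled Neil3-/- and Itga11 in wild type.

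The median log2 ratio over the chains compared was 0.64 in the pair labelled Neil3-/- and 0.52 in wild type, beside medians of 0.24 and 0.21 over all genes compared. Scaling libraries by median ratios or TMM in place of total reads moved the median of all genes by -0.23 and -0.21 in the pair labelled Neil3-/- and by -0.20 and -0.20 in wild type. The median over the chains was then 0.38 and 0.40 in the pair labelled Neil3-/- and 0.33 and 0.34 in wild type, and that over muscle and stromal chains, 0.58 and 0.48 as reported, was 0.32 and 0.34 in the pair labelled Neil3-/- and 0.25 and 0.26 in wild type. Under both scalings Itga5 and Itgav were no longer counted, and the 5 leukocyte chains counted were kept in both genotypes. By median ratios and TMM, 4.12% and 4.37% of all genes were higher by 2-fold or more in the pair labelled Neil3-/-. In wild type 3.58% and 3.64% were. Lamb2 and Lamb3 were then at least 2-fold lower in the pair labelled Neil3-/-, where 8.77% and 8.45% of all genes were.

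Among leukocyte chains, Itgb2 (Entrez 16414), the beta chain common to this group, had 71.5 RPKM in infarcted and 19.7 RPKM in non-infarcted tissue labelled Neil3-/-, and 60.2 RPKM in infarcted and 16.9 RPKM in non-infarcted wild-type tissue. Both infarcted libraries lay above both non-infarcted ones, by 3.63-fold (3.36 to 3.92) and 3.57-fold (3.29 to 3.87) within the 2 genotypes. Itgam (Entrez 16409), the alpha chain of the complement receptor of neutrophils and macrophages, had 63.6 RPKM in infarcted and 14.4 RPKM in non-infarcted tissue labelled Neil3-/-, and 52.6 and 13.2 RPKM in infarcted and non-infarcted wild-type tissue. It was the most abundant of the leukocyte alpha chains in each library. Its RPKM stood at 0.889 (0.853 to 0.928) and 0.873 (0.832 to 0.915) of that of Itgb2 in the infarcted libraries labelled Neil3-/- and wild type, and at 0.732 (0.666 to 0.805) and 0.782 (0.709 to 0.863) in the non-infarcted ones.

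Itgax (Entrez 16411), an alpha chain of dendritic cells and some macrophages, had 10.2 RPKM in infarcted and 1.91 RPKM in non-infarcted tissue labelled Neil3-/-, against 7.70 and 2.29 RPKM in the wild-type pair. The infarcted libraries were higher in both pairs, by 5.31-fold (4.34 to 6.55) in tissue labelled Neil3-/- and 3.37-fold (2.79 to 4.10) in wild type. The ratio of these ratios was 1.58 (1.20 to 2.07). On the log2(RPKM + 1) scale 0 of the 30 chains compared differed by 2-fold between genotypes in their infarct ratio, against 0.299% of all genes compared with a ratio higher by as much and 0.228% with a lower one. Itgal (Entrez 16408), the alpha chain of the lymphocyte function antigen that binds ICAM proteins, had 4.26 RPKM in infarcted and 0.845 RPKM in non-infarcted tissue labelled Neil3-/-, against 4.72 and 0.862 RPKM in the wild-type pair. That was higher by 5.05-fold (3.70 to 7.02) and 5.47-fold (4.05 to 7.53) in infarcted tissue, from 47 and 50 reads in the non-infarcted libraries. It passed the filter through the infarcted libraries alone, as did Itgb7, Itga2 and Itga2b.

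Itgb7, which joins Itga4 in the gut-homing integrin of lymphocytes, had 3.83 RPKM in infarcted and 0.986 RPKM in non-infarcted tissue labelled Neil3-/-, against 4.56 and 0.971 RPKM in the wild-type pair, or 3.88-fold (2.73 to 5.66) and 4.69-fold (3.32 to 6.78). Itga4, an alpha chain that binds VCAM and fibronectin and is found on many leukocytes, had 6.67 RPKM in infarcted and 2.88 RPKM in non-infarcted tissue labelled Neil3-/-, against 4.52 and 2.11 RPKM in the wild-type pair. It showed the smallest infarct ratio of the 6 leukocyte chains compared, 2.31-fold (2.07 to 2.60) and 2.14-fold (1.87 to 2.45), and stayed under 2-fold once 1 RPKM was added. Relative to Itgb2 in the same library it was 1.57-fold (1.36 to 1.80) lower in infarcted tissue labelled Neil3-/- and 1.67-fold (1.42 to 1.95) lower in infarcted wild-type tissue. Itgae, which marks T cells within epithelium, reached 0.659 RPKM at most, and Itgad had 3 to 5 reads in each library, at about the limit of detection.

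Of 10 myeloid markers, 8 were higher by 2-fold or more in infarcted tissue labelled Neil3-/- and 9 in infarcted wild-type tissue, with medians of 1.50 in the pair labelled Neil3-/- and 1.47 in wild type on the log2(RPKM + 1) scale, beside 1.66 and 1.56 for the 6 leukocyte chains compared. Over all genes compared, 8.20% and 6.21% were higher by 2-fold or more in these pairs. Without the filter, the medians over all 8 leukocyte chains were 1.40 in the pair labelled Neil3-/- and 1.45 in wild type. Summed, the myeloid markers had 1713 RPKM in infarcted and 692 RPKM in non-infarcted tissue labelled Neil3-/-, and 1258 and 426 RPKM in the wild-type pair, with no marker at 0. The 7 lymphocyte markers were low and summed to 6.10 and 5.52 RPKM in the infarcted libraries labelled Neil3-/- and wild type and to 2.48 and 1.92 RPKM in the non-infarcted ones. The part of these cells in the result was not tested.

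**Figure D2:**
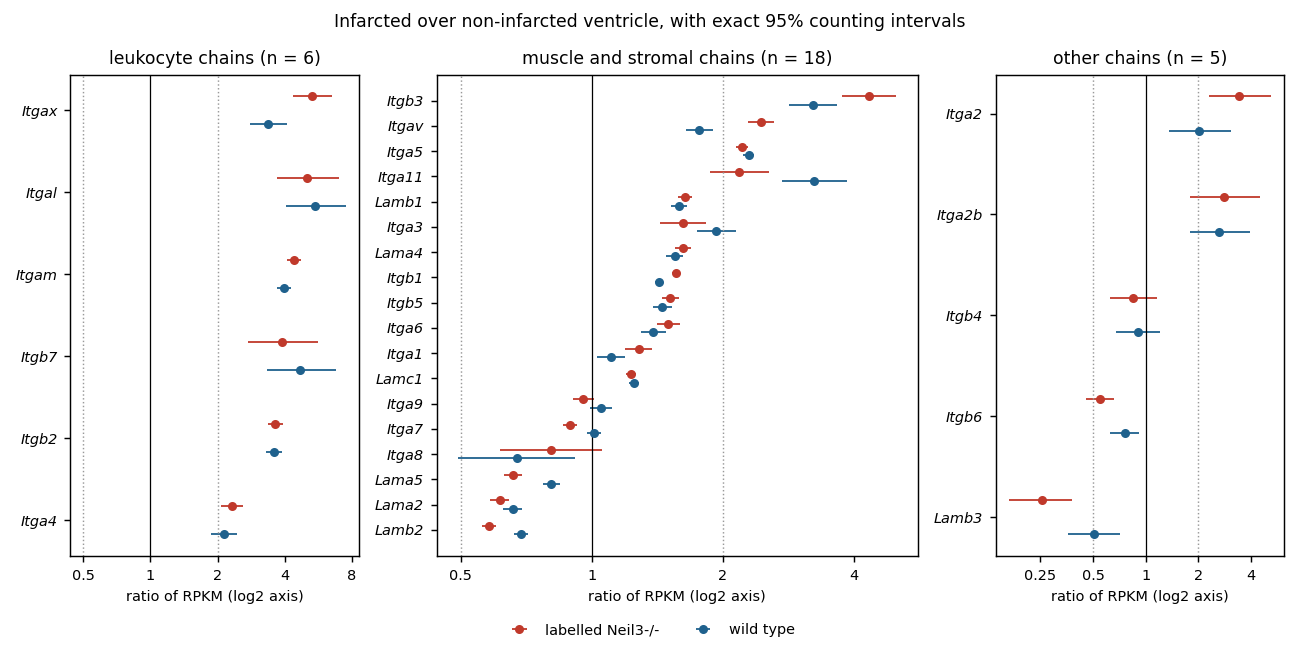
Ratio of RPKM in infarcted over non-infarcted ventricle (log2 axis) for chains at 1 RPKM or more in either pair, by class; points are ratios, bars exact 95% counting intervals, and dotted lines mark 2-fold. The 6 leukocyte chains all lie above 2, while the muscle and stromal chains run from 0.581 (Lamb2) to 4.32 (Itgb3) in the pair labelled Neil3-/-.

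Integrin chains of muscle and stroma were led by Itgb1 (Entrez 16412), the partner of most matrix-binding alpha chains. It had 349.9 RPKM in infarcted and 225 RPKM in non-infarcted tissue labelled Neil3-/-, and 319 and 224 RPKM in the wild-type pair, so that it was higher by 1.56-fold (1.53 to 1.59) and 1.42-fold (1.39 to 1.45) in infarcted tissue. It was the most abundant of the 37 chains per length in all 4 libraries. Itgb2 was higher by more than Itgb1: the RPKM of Itgb1 was 4.90 (4.73 to 5.07) times that of Itgb2 in the infarcted and 11.4 (10.6 to 12.2) times in the non-infarcted library labelled Neil3-/-, and 5.30 (5.10 to 5.50) and 13.3 (12.3 to 14.3) times in the wild-type pair. Leukocyte chains made up 18.3% of the summed RPKM of integrin alpha chains in infarcted and 7.52% in non-infarcted tissue labelled Neil3-/-, and 14.8% and 6.73% in the wild-type pair.

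Itga5 (Entrez 16402), the alpha chain of the fibronectin receptor, had 179.8 RPKM in infarcted and 81.3 RPKM in non-infarcted tissue labelled Neil3-/-, against 194 and 84.6 RPKM in the wild-type pair. The infarcted libraries were higher by 2.21-fold (2.14 to 2.28) and 2.29-fold (2.22 to 2.36). Itga7 (Entrez 16404), the laminin-binding chain of striated muscle, had 73.8 RPKM in infarcted and 82.9 RPKM in non-infarcted tissue labelled Neil3-/-, against 92.8 and 91.8 RPKM in the wild-type pair. All 4 values lay close together: it was 1.12-fold (1.08 to 1.17) lower in infarcted tissue labelled Neil3-/-, and the wild-type ratio of 1.01 (0.976 to 1.05) had an interval that includes 1, with a sign that turned below 0 under both other scalings. The 8 cardiomyocyte markers had medians of -1.82 and -1.45 on the log2(RPKM + 1) scale in the same pairs. Itga7 and Itga5 were the first and second alpha chains per length in the non-infarcted libraries, close together in the one labelled Neil3-/-, and changed places in the infarcted ones.

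Itgb3 (Entrez 16416), which joins Itgav in the vitronectin and osteopontin receptor and Itga2b on platelets, had 12.1 RPKM in infarcted and 2.80 RPKM in non-infarcted tissue labelled Neil3-/-, against 11.6 and 3.60 RPKM in the wild-type pair. Its ratios of 4.32 (3.75 to 4.99) and 3.22 (2.84 to 3.66) were in the range of the leukocyte chains. Itgav, its partner, had 25.8 RPKM in infarcted and 10.6 RPKM in non-infarcted tissue labelled Neil3-/-, against 19.4 and 10.97 RPKM in the wild-type pair, or higher by 2.44-fold (2.28 to 2.62) and 1.76-fold (1.64 to 1.89). Of the 6 platelet markers, 4 were compared in the pair labelled Neil3-/- and 5 in wild type, of which 2 in each were higher by 2-fold or more in infarcted tissue (Pf4 and Ppbp) and 1 in each, Gp1ba, was below 0 on the log2(RPKM + 1) scale, at -0.61 and -0.23. Over all genes compared, 8.20% and 6.21% were higher by 2-fold or more in these pairs. Pf4 and Ppbp made up most of the sum over the 6 genes, which came to 208 RPKM in infarcted and 48.9 RPKM in non-infarcted tissue labelled Neil3-/-, and 157 and 46.8 RPKM in the wild-type pair. Itga2b, the defining platelet chain, was low, at 1.49 and 0.529 RPKM in the pair labelled Neil3-/- and 1.90 and 0.723 RPKM in the wild-type pair, or higher by 2.81-fold (1.80 to 4.52) and 2.64-fold (1.80 to 3.93) in infarcted tissue. The part of platelets in the values of Itgb3 was not tested.

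Itga11, a collagen receptor chain of fibroblasts, had 6.98 RPKM in infarcted and 3.20 RPKM in non-infarcted tissue labelled Neil3-/-, against 7.57 and 2.34 RPKM in the wild-type pair. The ratio was 2.18 (1.87 to 2.55) and 3.24 (2.73 to 3.85), and the ratio of both was 0.673 (0.537 to 0.844). Itga1, a collagen receptor chain of smooth muscle, endothelium and fibroblasts, showed smaller ratios of 1.28 (1.19 to 1.38) and 1.11 (1.03 to 1.19). Itga2, a collagen receptor chain of platelets and epithelium, had 1.75 RPKM in infarcted and 0.512 RPKM in non-infarcted tissue labelled Neil3-/-, against 1.19 and 0.587 RPKM in the wild-type pair, and Itga10, known from cartilage, stayed under 1 RPKM in every library. The wild-type direction of Itga1 turned under median-ratio and TMM scaling.

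Of the other stromal chains, Itga3 and Itga6, which bind laminin, and Itgb5, which binds vitronectin with Itgav, were 1.38 to 1.93-fold higher in infarcted tissue. Itga9, a receptor chain for tenascin and osteopontin, had ratios whose intervals include 1, at 21.5 and 22.5 RPKM in infarcted and non-infarcted tissue labelled Neil3-/- and 21.2 and 20.2 RPKM in the wild-type pair. Itga8, the nephronectin receptor chain, had 1.08 and 1.34 RPKM in the pair labelled Neil3-/- and 0.782 and 1.16 RPKM in the wild-type pair, lower in infarcted tissue in both, though the interval of the first ratio includes 1. Itgb6, an epithelial chain that activates TGF-beta, was lower in infarcted tissue too, at 2.26 and 4.09 RPKM in the pair labelled Neil3-/- and 2.49 and 3.28 RPKM in the wild-type pair, or 1.81-fold (1.51 to 2.18) and 1.32-fold (1.09 to 1.60). Itgb4, the hemidesmosome chain of epithelium, and Itgb8 stayed at 1.07 RPKM or less.

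**Figure D3:**
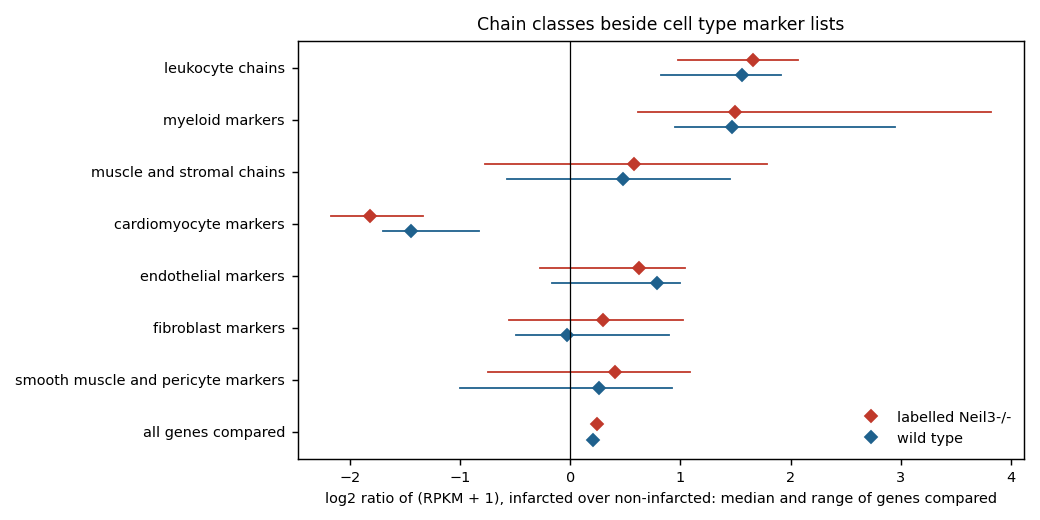
Median (diamond) and range (line) of the log2 ratio of (RPKM + 1) in infarcted over non-infarcted ventricle for the leukocyte and the muscle and stromal chains compared, for marker lists and, as medians only, for all genes compared. Leukocyte chains lie at 1.66 and 1.56 in the pairs labelled Neil3-/- and wild type, close to myeloid markers at 1.50 and 1.47, while muscle and stromal chains lie at 0.58 and 0.48, near endothelial markers at 0.63 and 0.78, above fibroblast markers at 0.30 and -0.03 and smooth muscle and pericyte markers at 0.40 and 0.26, and far above cardiomyocyte markers at -1.82 and -1.45. Without the filter, the medians over all 8 leukocyte chains, not drawn, are 1.40 and 1.45. Those over all 21 muscle and stromal chains, not drawn either, are then 0.33 and 0.32. These lie below the endothelial medians and closer to those of fibroblast or smooth muscle and pericyte markers.

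The laminin alpha chains differed in direction. Lama4 (Entrez 16775), the alpha chain of endothelial and other vascular basement membranes, had 60.1 RPKM in infarcted and 37.2 RPKM in non-infarcted tissue labelled Neil3-/-, against 56.2 and 36.3 RPKM in the wild-type pair, or higher by 1.62-fold (1.55 to 1.69) and 1.55-fold (1.48 to 1.62). Lama2 (Entrez 16773), the muscle alpha chain whose loss causes muscular dystrophy, had 15.1 RPKM in infarcted and 24.5 RPKM in non-infarcted tissue labelled Neil3-/-, against 15.5 and 23.6 RPKM in the wild-type pair, or lower by 1.63-fold (1.55 to 1.71) and 1.52-fold (1.45 to 1.60). Lama5, the alpha chain of mature endothelial and epithelial basement membranes, had 16.6 RPKM in infarcted and 25.2 RPKM in non-infarcted tissue labelled Neil3-/-, against 17.5 and 21.7 RPKM in the wild-type pair. It was lower in infarcted tissue in both, by 1.52-fold (1.45 to 1.59) and 1.24-fold (1.18 to 1.30). In each pair the values of Lama4 lay on the other side from those of Lama2 and Lama5.

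Within a library, where scaling plays no part, Lama4 had 3.99 (3.81 to 4.17) times the RPKM of Lama2 in infarcted and 1.52 (1.44 to 1.59) times in non-infarcted tissue labelled Neil3-/-, and 3.63 (3.46 to 3.80) and 1.54 (1.47 to 1.62) times in the wild-type pair. That ratio was higher by 2.63-fold (2.46 to 2.81) and 2.35-fold (2.20 to 2.52) in infarcted tissue. Lama4 accounted for 65.0% of the summed RPKM of laminin alpha chains in infarcted and 42.4% in non-infarcted tissue labelled Neil3-/-, and for 62.6% and 44.1% in the wild-type pair. Lama2 and Lama5 kept close to each other: the RPKM of Lama5 was 1.10 (1.05 to 1.16) times that of Lama2 in infarcted and 1.03 (0.983 to 1.08) times in non-infarcted tissue labelled Neil3-/-, and 1.13 (1.07 to 1.19) and 0.920 (0.878 to 0.964) times in the wild-type pair. Their order in the non-infarcted library labelled Neil3-/- was not set beyond counting error.

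The beta chains divided in the same way. Lamb1 (Entrez 16777), the beta chain of embryonic and many adult laminins, had 74.0 RPKM in infarcted and 45.3 RPKM in non-infarcted tissue labelled Neil3-/-, against 66.3 and 41.9 RPKM in the wild-type pair, or higher by 1.63-fold (1.57 to 1.70) and 1.58-fold (1.52 to 1.65). Lamb2 (Entrez 16779), the beta chain enriched at neuromuscular junctions and in kidney and arterial basement membrane, had 46.7 RPKM in infarcted and 80.4 RPKM in non-infarcted tissue labelled Neil3-/-, against 54.6 and 79.4 RPKM in the wild-type pair, or lower by 1.72-fold (1.66 to 1.79) and 1.46-fold (1.40 to 1.51). Lamb1 thus stood above Lamb2 in both infarcted libraries and below it in both non-infarcted ones. The ratio of Lamb1 to Lamb2 was 1.59 (1.53 to 1.65) in infarcted and 0.564 (0.541 to 0.587) in non-infarcted tissue labelled Neil3-/-, and 1.22 (1.17 to 1.26) and 0.528 (0.507 to 0.550) in the wild-type pair, a change of 2.82-fold (2.67 to 2.97) and 2.30-fold (2.18 to 2.43).

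Lamc1, the gamma chain of most laminins, had 109 RPKM in infarcted and 88.7 RPKM in non-infarcted tissue labelled Neil3-/-, against 106 and 85.2 RPKM in the wild-type pair, or higher by 1.23-fold (1.20 to 1.26) and 1.25-fold (1.22 to 1.28). On the log2(RPKM + 1) scale that is 0.29 and 0.32, near the medians of 0.24 and 0.21 over all genes compared. Of the chains that form the epithelial laminin of skin, Lamb3 had 0.434 RPKM in infarcted and 1.71 RPKM in non-infarcted tissue labelled Neil3-/-, against 0.800 and 1.57 RPKM in the wild-type pair, or lower by 3.94-fold (2.62 to 6.07) and 1.97-fold (1.40 to 2.79). Lamb3 passed the filter through the non-infarcted libraries alone. It had 32 reads in infarcted and 99 in non-infarcted tissue labelled Neil3-/-, and 56 and 95 in the wild-type pair. The ratio of its RPKM ratios was 0.499 (0.297 to 0.837), which reaches 2-fold only with nothing added. With 0.1 RPKM added, 0 of the 30 chains compared differed by as much between genotypes in their infarct ratio. Lama3, the alpha chain of that trimer, stayed between 0.471 and 0.662 RPKM, and Lama1 and Lamc3 had 14 reads or fewer in each library.

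**Figure D4:**
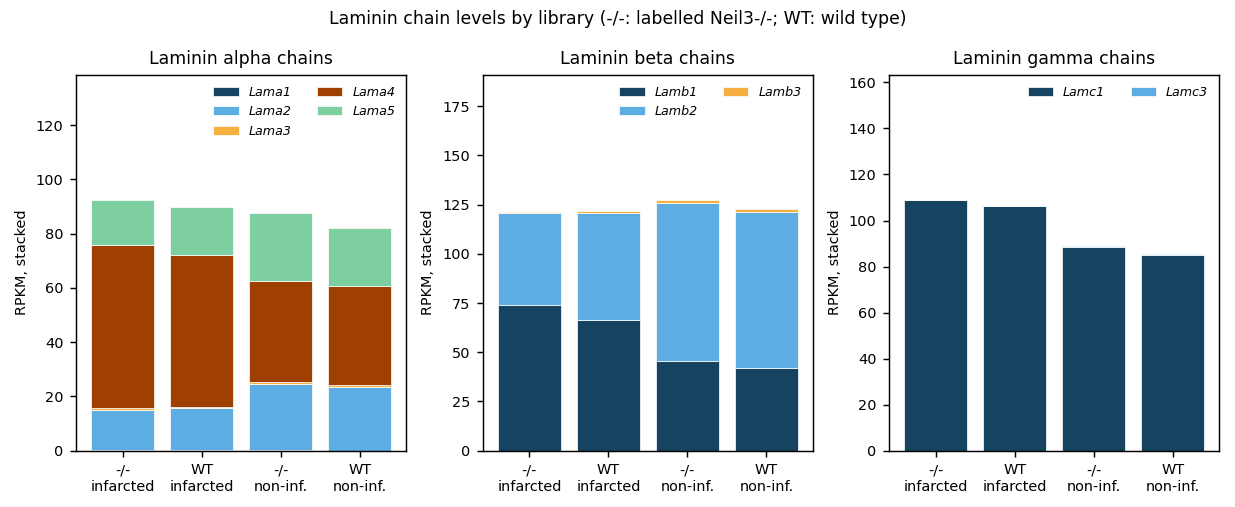
RPKM of the laminin alpha, beta and gamma chains reported here in each library, stacked from 0 in 1 bar per library without replicates. The bars are of like height for the alpha and beta chains, while Lama4 fills 65.0% and 62.6% of the alpha bar in the infarcted libraries labelled Neil3-/- and wild type and 42.4% and 44.1% in the non-infarcted ones.

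Endothelial, fibroblast and smooth muscle markers were set beside these stromal chains. The 7 endothelial markers had medians of 0.63 in the pair labelled Neil3-/- and 0.78 in wild type on the log2(RPKM + 1) scale, and summed to 507 and 535 RPKM in the infarcted libraries labelled Neil3-/- and wild type, against 317 and 327 RPKM in the non-infarcted ones. The 7 fibroblast markers had medians of 0.30 and -0.03 and summed to 3147 and 2062 RPKM in the infarcted libraries, against 2017 and 1569 RPKM in the non-infarcted ones. The 5 smooth muscle and pericyte markers had 0.40 and 0.26 and summed to 613 and 504 RPKM, against 369 and 363 RPKM. None of these markers was at 0 in any library. Their part in the differences among laminin chains was not tested.

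Genes that act with these chains were examined through 3 lists. Over all genes compared, 8.20% were higher by 2-fold or more in infarcted tissue labelled Neil3-/- and 6.07% lower, and 6.21% and 3.60% in wild type. Of 27 adhesion machinery genes compared, which link integrin tails to actin, 6 were higher by 2-fold or more in infarcted tissue and 1 lower by as much, in each genotype, with medians of 0.59 in the pair labelled Neil3-/- and 0.73 in wild type. Those higher were Fermt3, Ptk2b, Parvg, Apbb1ip and Actn1 in both genotypes, with Rap1b in the pair labelled Neil3-/- and Tgfb1i1 in wild type. Fermt3, the kindlin of blood cells that activates their integrins, had 27.0 RPKM in infarcted and 12.5 RPKM in non-infarcted tissue labelled Neil3-/-, against 24.4 and 9.32 RPKM in the wild-type pair. Apbb1ip, the Rap1 effector that recruits talin in leukocytes, was higher by 2.89-fold (2.60 to 3.22) and 2.62-fold (2.35 to 2.93), and Parvg, the parvin of blood cells, by 3.32-fold (2.65 to 4.18) in the pair labelled Neil3-/- and 2.50-fold in wild type. Actn1, the nonmuscle actinin of focal adhesions, was higher by 2.48-fold (2.39 to 2.58) and 2.72-fold (2.62 to 2.82). The gene lower in both was Itgb1bp2, which codes for melusin, a muscle protein that binds the Itgb1 tail, at 26.6 RPKM in infarcted and 102 RPKM in non-infarcted tissue labelled Neil3-/-, against 41.1 and 116 RPKM in the wild-type pair. That was lower by 3.85-fold (3.52 to 4.22) and 2.82-fold (2.61 to 3.05), where Itga7 differed by 1.12-fold at most.

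Of basement membrane partners and laminin receptors, 1 of 19 compared was higher by 2-fold or more and 3 lower by 2-fold or more in infarcted tissue labelled Neil3-/-, and 2 of 18 were higher and 1 lower in wild type. Over all genes compared, 8.20% were higher and 6.07% lower by as much in the pair labelled Neil3-/-, and 6.21% and 3.60% in wild type. Col18a1, the collagen chain that holds endostatin, was higher by 3.50-fold (3.28 to 3.73) and 2.69-fold (2.52 to 2.87), and Nid2, a nidogen that joins laminin to collagen, was counted as higher in wild type, at 2.28-fold (2.13 to 2.46). Sgca, a sarcoglycan of the muscle laminin receptor complex, was lower by 3.54-fold (3.20 to 3.92) and 2.59-fold (2.37 to 2.83). Sspn of the same complex was 2.25-fold (2.13 to 2.37) lower in tissue labelled Neil3-/- and 1.96-fold (1.87 to 2.07) lower in wild type. Bcam, a receptor for Lama5, had 48.6 RPKM in infarcted and 109 RPKM in non-infarcted tissue labelled Neil3-/-, against 76.0 and 137 RPKM in the wild-type pair, and was lower as Lama5 was. Among ligands and counter-receptors, 5 of 14 compared reached 2-fold higher values in infarcted tissue labelled Neil3-/- and 4 of 13 in wild type, with 0 lower in either. These were Spp1, Thbs1, Fn1 and Adam8 in both, with Tnc in the pair labelled Neil3-/-. Spp1, or osteopontin, which Itga9 and the pair of Itgav and Itgb3 bind, had 1388 RPKM in infarcted and 208 RPKM in non-infarcted tissue labelled Neil3-/-, against 836.6 and 168 RPKM in the wild-type pair. Adam8, a leukocyte metalloprotease with a disintegrin domain, was higher by 5.71-fold (5.26 to 6.22) and 4.58-fold (4.21 to 4.99).

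The second question was how libraries labelled Neil3-/- differed from wild type. None of the 28 chains compared in infarcted tissue was 2-fold apart, where 0.249% of all genes were at least 2-fold higher and 0.241% lower, and none of the 26 compared in non-infarcted tissue, where 0.254% and 0.188% were. The median over the chains was 0.04 in infarcted and 0.07 in non-infarcted tissue, beside 0.02 and 0.01 over all genes. Both of these comparisons use the same 4 libraries as the infarct comparisons above, so their values are not independent of them.

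In infarcted tissue the widest differences among the chains compared lay in Itga3 and Itga4. Itga3, a laminin receptor chain of epithelium and vessels, had 9.21 RPKM in the infarcted library labelled Neil3-/- and 14.1 RPKM in infarcted wild-type tissue, or 1.53-fold (1.40 to 1.67) lower, and 5.69 against 7.31 RPKM in the non-infarcted libraries, or 1.28-fold (1.13 to 1.47) lower. Itga4 was higher in the library labelled Neil3-/- in both regions, by 1.48-fold (1.35 to 1.62) and 1.37-fold (1.18 to 1.59) in infarcted and non-infarcted tissue. Of the chains of the Itgb2 group in infarcted tissue, Itgax was higher in the library labelled Neil3-/- by 1.32-fold (1.18 to 1.48), Itgam by 1.21-fold (1.16 to 1.26) and Itgb2 by 1.19-fold (1.13 to 1.25). Itgal and Itgb7, chains best known from lymphocytes, were lower there by 1.11-fold (0.942 to 1.30) and 1.19-fold (0.972 to 1.45), with intervals that include 1. Relative to Itgb2, Itgal was 1.31-fold (1.11 to 1.55) lower in the infarcted library labelled Neil3-/-, a ratio that scaling of libraries does not touch. The 10 myeloid markers were all above 0 in this comparison on the log2(RPKM + 1) scale, with a median of 0.35, and their part in these values was not tested. Over all 12464 genes compared, 6792 were above 0.

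Of muscle and stromal chains in infarcted tissue, Itgav was 1.33-fold (1.27 to 1.41), Itgb5 1.21-fold (1.16 to 1.26) and Itga6 1.19-fold (1.13 to 1.26) higher in the library labelled Neil3-/-. Itga7 was 1.26-fold (1.21 to 1.30) and Lamb2 1.17-fold (1.12 to 1.22) lower in that library. The cardiomyocyte markers were all below 0 in the same comparison, with a median of -0.66, while the fibroblast markers were all above 0 with a median of 0.60. The 7 endothelial markers were all below 0 too, with a median of -0.07. Of 5 smooth muscle and pericyte markers 4 were above 0, with a median of 0.12. Over all 12464 genes compared, 6792 were above 0 and 5672 below. The part of all these markers was not tested either. Lama2, Lama4 and Lamc1 differed by 1.07-fold or less. Lamb1 was 1.12-fold (1.08 to 1.15) higher, so that its ratio to Lamb2 was 1.31-fold (1.24 to 1.37) higher in the infarcted library labelled Neil3-/- and 1.07-fold (1.01 to 1.13) higher in the non-infarcted one.

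**Figure D5:**
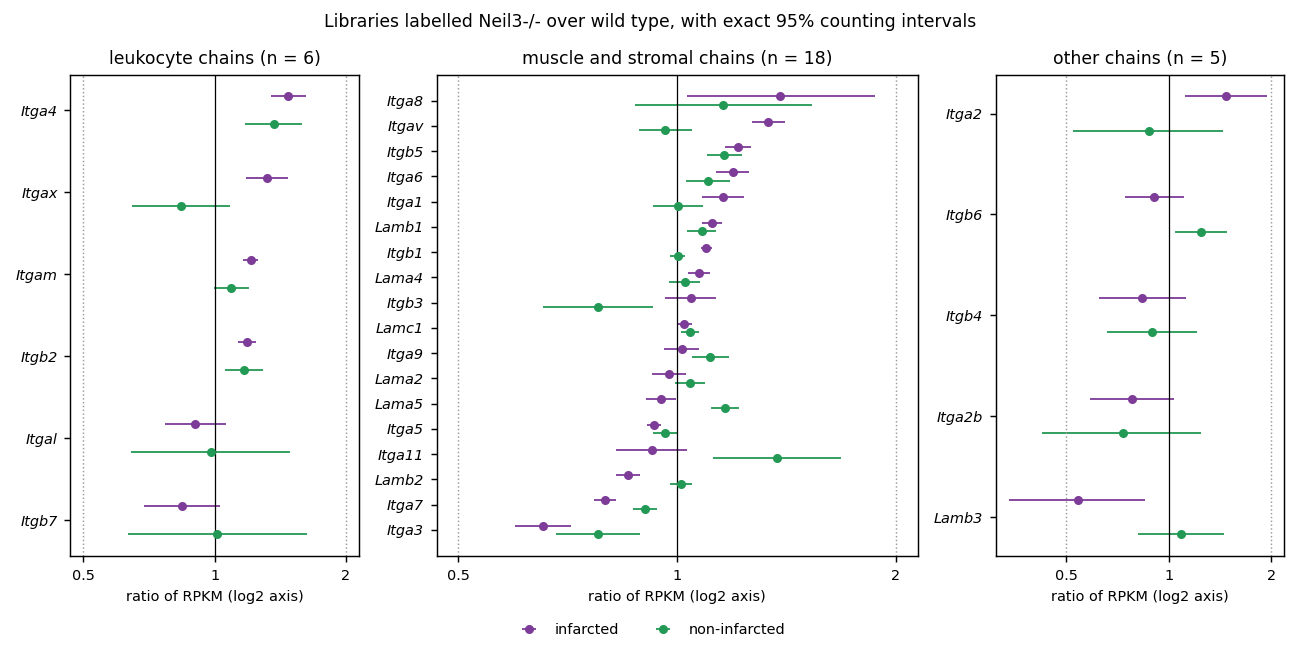
Ratio of RPKM in libraries labelled Neil3-/- over wild type (log2 axis), in infarcted and non-infarcted tissue, for chains at 1 RPKM or more in either comparison; bars are exact 95% counting intervals and dotted lines mark 2-fold. No point reaches 2-fold, and Itga3 lies lowest among muscle and stromal chains with 1.53-fold lower RPKM in infarcted tissue.

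In non-infarcted tissue, intervals excluded 1 upward for Itga4, Itgb2, Itga11, Itga6, Itga9, Itgb5, Itgb6, Lama5, Lamb1 and Lamc1, which were 1.04 to 1.37-fold higher in the library labelled Neil3-/-. They excluded 1 downward for Itga3, Itga5, Itga7 and Itgb3, which were 1.04 to 1.29-fold lower there. The remaining 12 of the 26 chains compared had intervals that include 1. These intervals hold counting error alone, and the share of all genes whose intervals exclude 1 was not computed. With 1 library per group, the lists are not read as an effect of genotype.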

How the data were processed

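RNA from 4 libraries, 1 per group, was analysed. Per the file headers, the authors deposited the number of uniquely assigned reads per Entrez gene (read counts), gene length, coverage in percent and RPKM, for genes with at least 1 read. Deposited RPKM equalled reads divided by length and by the library total, within a relative error of 5.11e-15. The deposited percent coverage was read but is not reported. Per the submitters' processing notes the genome build is mm9; no aligner, counter or annotation is named there, and how reads shared by the sequence relatives Itgam, Itgax and Itgad were treated is not known.

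Log2 ratios of (RPKM + 1) were computed for all genes at 1 RPKM or more in a library compared, and counted at 2-fold. With 1 library per group no test was run and no p-value computed. Ratios of RPKM carry exact Clopper-Pearson 95% intervals of the read share, ratios of 2 chains within libraries exact conditional intervals of the odds ratio, and ratios of ratios a log-scale interval. A count of 3 reads was taken as the limit of detection. The calculation was tested on simulated counts with counting error alone, so that test says nothing on variation between mice or libraries. The members and lists were chosen with earlier results of these data known. Of the 37 chains, 1 is not reported here beyond the counts and medians over all chains, and is left out of the figures; of each companion list up to 4 genes per infarct comparison, at 5 RPKM or more and with the largest ratio, are given values, and those counted at 2-fold are named after their values were seen. Of listed companion genes, Fga was not found. RefSeq promoters (GRCm38.p6) matched 23 of 37 chains. Tools were Python 3.11.15, SciPy 1.17.1, pandas 2.3.3, and R 4.3.3 with edgeR 4.0.16 and DESeq2 1.42.0 for TMM and median-ratio factors.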

Additional observations from a re-analysis of the deposited data

Results flagged for a closer look

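All 37 chains were searched here without the filter of 1 RPKM. In 3 chains the infarct ratio lay on different sides of 1 in the genotypes while the counting interval of the ratio of both ratios excluded 1. The share of all genes that meet this rule was not computed, and with 1 library per group the difference was not tested. Itga7 was 1.12-fold lower in infarcted tissue labelled Neil3-/- and 1.01-fold higher in infarcted wild-type tissue, with a ratio of ratios of 0.880 (0.835 to 0.928). Itga9 was 1.05-fold lower and 1.05-fold higher in the same order, with 0.912 (0.842 to 0.989). Itgb8, an integrin chain that activates TGF-beta, was 1.70-fold higher and 1.26-fold lower, with 2.14 (1.02 to 4.46), from 52 and 24 reads in infarcted and non-infarcted tissue labelled Neil3-/- and 24 and 26 reads in the wild-type pair. It stayed under 1 RPKM in every library and so did not pass the filter in any comparison. Under median-ratio and TMM scaling the wild-type ratios of Itga7 and Itga9 also lay below 1.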

How the results depend on the processing

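The alternatives were 0.1 RPKM added in place of 1, no filter, a filter at 5 RPKM, median-ratio scaling, TMM scaling, and reads scaled to library size but not to length. In the infarct comparisons, the count of leukocyte chains at least 2-fold higher was 3 in both the pair labelled Neil3-/- and the wild-type pair with a filter at 5 RPKM, against 5 and 5, since fewer chains then pass. At that filter 9.28% of all genes compared in the pair labelled Neil3-/- and 7.08% in wild type were higher by as much. In the pair labelled Neil3-/-, the count of chains at least 2-fold lower, 0 as reported, was 1 with 0.1 RPKM added, 1 without length (Lamb3 in both), and 2 under median-ratio and 2 under TMM scaling (Lamb2 and Lamb3), where 8.77% and 8.45% of all genes were lower. With 0.1 RPKM added 7.80% of all genes were lower by as much, and without length 6.81%. Under median-ratio and TMM scaling 1 muscle and stromal chain (Itgb3) was counted as higher, against 3, where 4.12% and 4.37% of all genes were higher. Under both, 1 (Lamb2) was counted as lower, against 0. The other 222 counts and within-library ratios kept their value or stayed within 1.5 times of it. For the within-library ratios this was fixed beforehand: length and library scaling cancel in their changes, and they were not recomputed. Of the recomputed log2 ratios of single chains, 101 moved further than the margin of their counting interval and 717 did not. No ratio of a counted chain changed sign. Ratios of low chains rest on few reads: Itgad, Lamc3 and Lama1 had 14 or fewer in each library. No paired analysis was possible because each group has 1 library, and no library could be left out.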
